A study of Mus musculus with 68 samples.

Results

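The second pharyngeal arch (PA2) was compared with the first (PA1) in wildtype mouse embryos at E9.0, across all genes of the table. The libraries were chosen by their labels alone: 4 of PA2 (embryos 1, 2, 4 and 5) and 5 of PA1 (embryos 1 to 5), 9 of the 68 libraries in all, with both arches of 4 embryos. All embryos were of the strain CBA/Ca/J x C57BL/10, and the 9 libraries carried the label wildtype and no treatment. Arches were dissected by hand, so each library holds every tissue that came away with the arch. Other groups compared below are wildtype arches at E9.5 (5 PA1, 4 PA2) and E10.5 (3 PA1, 3 PA2), and arches labelled Hoxa2-/- at E9.0 (4 PA1, 4 PA2). The fit and the sorting of genes by tissue also use the rest of the series. These are wildtype arches at E10.0 (5 PA1, 5 PA2) and arches labelled Hoxa2-/- at E9.5 (5 PA1, 5 PA2), E10.0 (5 PA1, 5 PA2) and E10.5 (3 PA1, 3 PA2).

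Pharyngeal arches are outgrowths on either side of the embryonic throat. Each has a core of mesoderm and a filling of neural crest mesenchyme, is lined by ectoderm outside and endodermal pouches inside, and carries an artery; PA1 forms the jaws, and PA2, the next arch toward the tail, forms the hyoid and part of the middle ear. Crest cells of PA1 lack Hox expression, whereas those of PA2 express group 2 Hox genes, and Hoxa2 is the factor that sets PA2 apart from PA1. At this age the outflow tract of the heart and its progenitors lie directly below PA2, and the otic vesicle and the facial ganglion lie above it.

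Depth ran from 14720747 to 20619153 recovered reads in the 9 libraries, so that 3 reads, the floor used here, came to at most 0.207 CPM, the depth-scaled read count of the deposited table. No library repeated another of its group: over 16 pairs of replicates, chi-square per degree of freedom ran from 8.13 to 95.9. In every library 3 genes taken from earlier results of these data stood at the level of the labelled arch. As they were chosen from these data, they are no independent check of the labels. Hoxa2 stood at 20.2 to 23.1 CPM in PA2 and at most 0.209 in PA1, Nkx2-6 at 61.4 to 113 in PA2 and 1.67 to 3.96 in PA1, and Pitx1 at 0.641 to 2.11 in PA2 and 21.4 to 46.8 in PA1. PA2 of embryo 2 stood apart from the other PA2 libraries in its heart and blood genes, and results that rest on it are given with and without it.

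The arches differed widely. Of 18428 genes tested, 1882 (10.2%) were higher in PA2 and 1572 (8.53%) were lower at an adjusted p under 0.05. In all 4 embryos with both arches, 1684 of the higher genes and 1506 of the lower ones had the direction of the call. The libraries of the arches did not overlap for 1233 of the higher and 1131 of the lower genes, against 8.28% and 8.81% of all genes tested. More genes passed a difference of 1 on the PA2 side: 441 genes were higher by at least 1 on the log2(CPM + 1) scale (2.39% of those tested) and 106 lower (0.575%). Scaling each library to a total without the heart, red cell and yolk sac markers gave 2232 higher and 1137 lower genes, 66.3% higher in place of 54.5%. With only the compared groups fitted there were 1554 higher and 1648 lower (48.5% higher), in the 4 complete embryos with the block 1559 and 1664 (48.4%), and among genes with 5 CPM in 3 libraries 1473 and 1540 (48.9%). Without PA2 of embryo 2 there were 1761 higher and 1213 lower, of which 1503 and 1048 were called in the full set too.

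To separate tissues, each of these 547 genes was set against marker lists of 10 tissues in the 59 libraries outside wildtype E9.0. A gene was counted with the tissue whose mean marker level its own followed most closely, if Pearson's r over deviations from group means was at least 0.6. Of the 441 higher genes, 124 followed heart muscle, 43 red cells, 15 pouch endoderm and epithelium, 8 ganglion neurons, 6 endothelium and 6 the otic vesicle, while 239 followed none. Among the 106 lower genes, 7 followed surface ectoderm, 4 crest mesenchyme, 1 the neural tube and 94 none. These counts describe which genes vary together across libraries that share batches and depth, and a gene that follows no list is not thereby a mesenchymal gene.

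**Figure D1:**
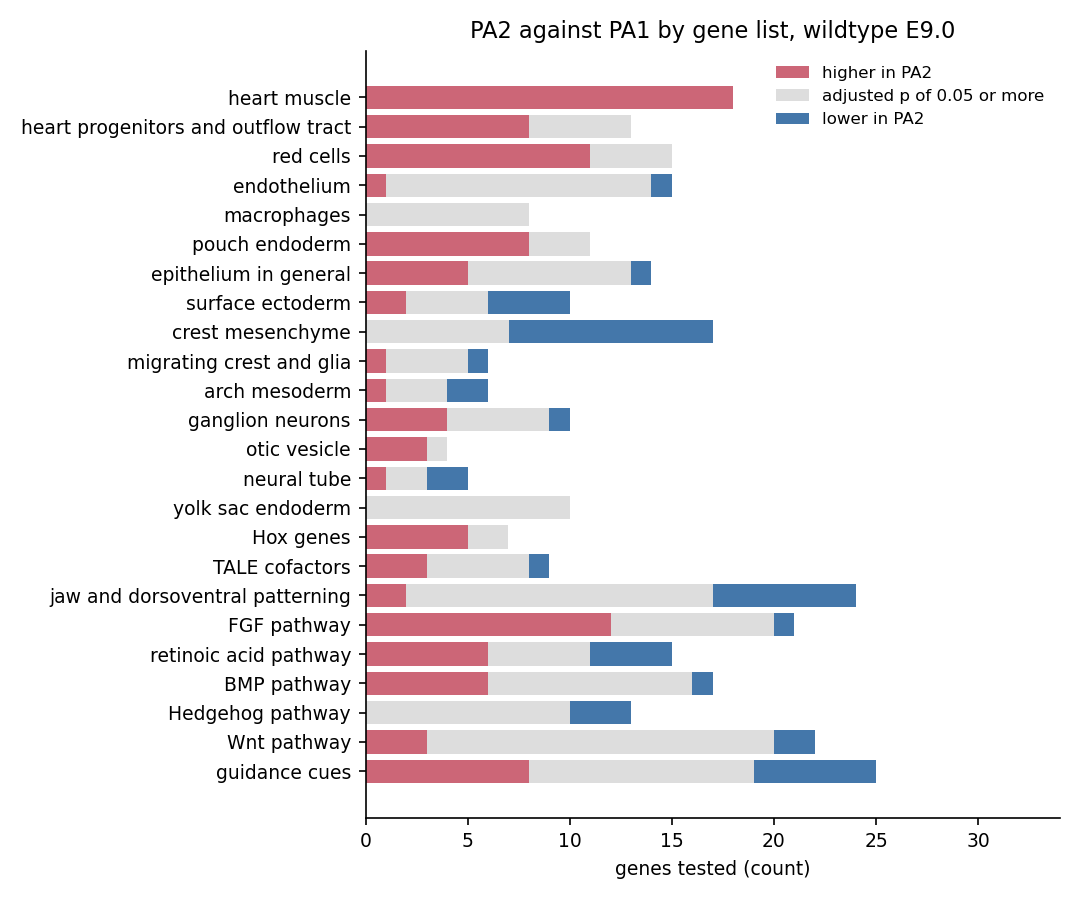
Genes of each list (y axis) tested at wildtype E9.0, as counts (x axis): higher in PA2 (red), lower in PA2 (blue) or with an adjusted p of 0.05 or more (grey). All 18 heart muscle genes were higher in PA2 and 10 of 17 crest mesenchyme genes lower. Of all genes tested, 10.2% were higher and 8.53% lower.

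Heart muscle genes were high in 3 of the 4 PA2 libraries. All 18 tested genes of the heart muscle list were higher in PA2 (Nppa and Nppb of the 20 listed were not analysed here), with a median difference of 3.33 against -0.01 over all genes. Pln, phospholamban, had the smallest of these differences at 0.47, and with the block it did not pass (adjusted p = 0.053). Myl7, the atrial myosin light chain, stood at 198, 4.33, 160 and 189 CPM in PA2 of embryos 1, 2, 4 and 5, and at 2.14, 2.17, 1.69, 3.17 and 1.62 in PA1 of embryos 1 to 5. It was high in 3 of the PA2 libraries and near PA1 in that of embryo 2, although the arches did not overlap. Its log2 difference was 4.60 (SE 0.88, adjusted p = 9.9e-05). Tnnt2, cardiac troponin T, had 102, 3.37, 79.4 and 92.3 CPM in PA2 against 0.705 to 3.17 in PA1, and a difference of 4.11 (SE 0.80, adjusted p = 0.00011). Actc1, cardiac actin, had 409, 9.03, 341 and 361 CPM against 3.28 to 10.8 in PA1, so the arches overlapped through embryo 2. Myl4 and Tnni1, a myosin light chain and the slow troponin I, and Unc45b and Smyd1, which help to assemble sarcomeres, were higher by 3.80, 3.66, 4.38 and 3.93 with the same low library.

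Summed over the list, heart muscle markers came to 1495, 1408 and 1400 CPM in PA2 of embryos 1, 4 and 5, to 80.1 in PA2 of embryo 2 and to 27.4 to 61 in PA1. The other groups show how far this sum moves. In wildtype PA2 it ran from 77.5 to 1248 CPM at E9.5, from 19.8 to 118 at E10.0 and from 11.7 to 14.5 at E10.5. In PA2 labelled Hoxa2-/- it ran from 142 to 1289 at E9.0. Without PA2 of embryo 2 the 18 genes were still called higher, with a median of 4.12. In whole arches, more cells of a type and more RNA per cell cannot be told apart, here and below. Whether these reads came from heart tissue taken along with the arch was not tested.

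Of 13 genes of the heart progenitors and outflow tract, 8 were higher (5 without PA2 of embryo 4), none was lower, and the median was 1.33 (2.00 without PA2 of embryo 2). Isl1, a marker of the second heart field, stood at 151, 86.9, 136 and 153 CPM in PA2 against 23.4 to 35.6 in PA1. Every PA2 library lay above every PA1 library, that of embryo 2 included, and the difference was 2.11 (SE 0.17, adjusted p = 5e-15). Nkx2-5, a cardiac homeobox gene, had 23.2, 4.65, 20.7 and 17.2 CPM against 2.56 to 3.85. Tbx1, a T-box gene of pharyngeal mesoderm and endoderm, had 55.2, 56.7, 39.1 and 42.9 CPM against 19.7 to 33.8, with embryo 2 as the highest, and rose by 0.84 (SE 0.25, adjusted p = 0.014). Gata4 rose by 1.60 (adjusted p = 0.039), a call that was lost when the embryo was a block (adjusted p = 0.052).

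The starts of 3 heart muscle genes held a CArG box, the binding motif of serum response factor, in the 300 bases around a start. Searched on both strands, it was in 3 of 23 windows of the 18 list genes (13%) against 1.63% of 32851 windows of all genes. The 250 bases before the start of these genes follow (RefSeq, GRCm38.p6, the gene's own strand), with the box in capitals, because Myl7 and Actc1 carry the heart difference. They lie at chr11:5898783-5899032 on the minus strand for Myl7, chr2:114052876-114053125 on the minus strand for Actc1 and chr9:110763428-110763677 on the plus strand for Myl3, a ventricular light chain.
Myl7: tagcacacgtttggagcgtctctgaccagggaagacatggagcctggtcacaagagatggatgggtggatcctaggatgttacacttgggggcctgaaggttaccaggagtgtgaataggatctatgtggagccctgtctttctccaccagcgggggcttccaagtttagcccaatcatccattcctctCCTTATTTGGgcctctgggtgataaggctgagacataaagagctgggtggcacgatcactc
Actc1: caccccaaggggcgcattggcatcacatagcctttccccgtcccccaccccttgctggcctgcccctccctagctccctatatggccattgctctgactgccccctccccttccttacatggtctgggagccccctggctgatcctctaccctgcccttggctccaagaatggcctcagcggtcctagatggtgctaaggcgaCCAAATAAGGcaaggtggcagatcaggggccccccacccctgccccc
Myl3: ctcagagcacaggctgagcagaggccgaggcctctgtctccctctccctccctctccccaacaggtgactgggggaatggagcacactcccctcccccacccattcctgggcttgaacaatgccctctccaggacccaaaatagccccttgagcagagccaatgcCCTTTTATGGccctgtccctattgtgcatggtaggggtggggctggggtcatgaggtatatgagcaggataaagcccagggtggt

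**Figure D2:**
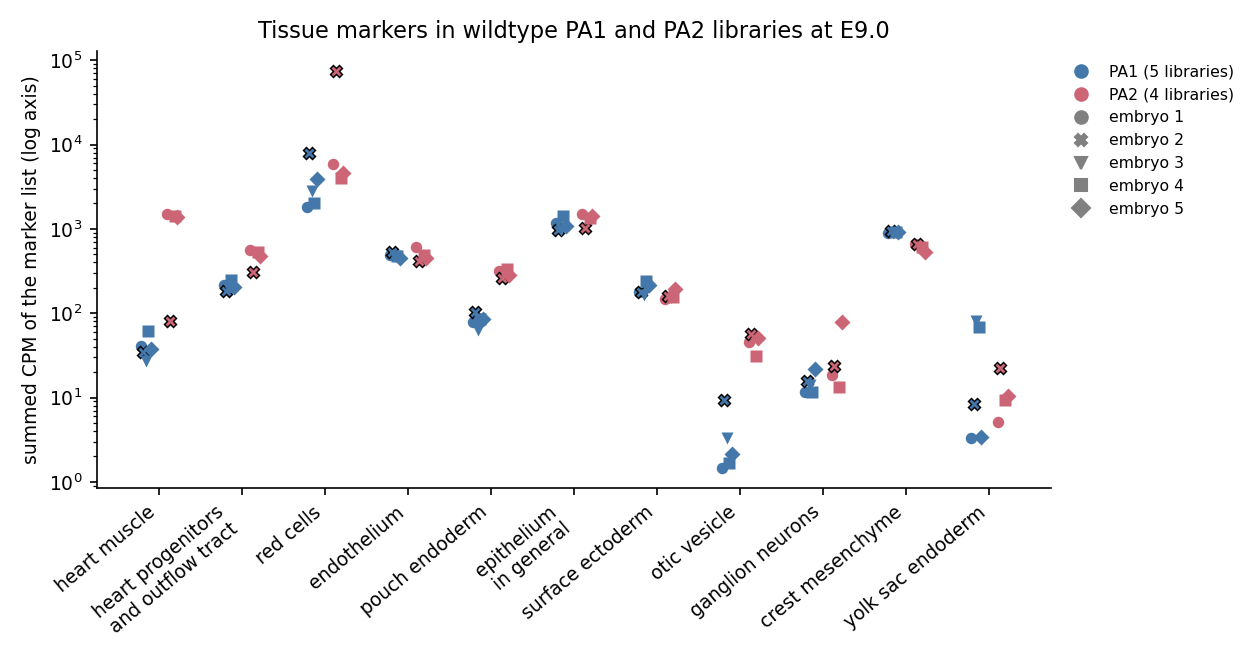
Summed CPM of 11 marker lists (log axis) in the 9 wildtype libraries at E9.0, PA1 in blue and PA2 in red, with 1 marker shape per embryo. PA2 of embryo 2 (outlined cross) sits at 80.1 for heart muscle and at 75218 for red cells, away from the other PA2 libraries.

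The higher call of red cell genes rested on PA2 of embryo 2. Their sum was 5876, 4031 and 4656 CPM in PA2 of embryos 1, 4 and 5, 75218 in PA2 of embryo 2, and 1835 to 7967 in PA1, where embryo 2 was again the highest. Of 15 genes tested, 11 were called higher, with a median of 1.42, and without PA2 of embryo 2 none was (median 0.58). Hba-x, an embryonic alpha globin, had 1307, 15513, 801 and 993 CPM in PA2 against 378 to 1468 in PA1, and the arches overlapped. Its difference was 1.63 (SE 0.51, adjusted p = 0.018). With the embryo as a block 14 of the 15 were called, but 0 with only the compared groups fitted, 1 without PA1 of embryo 1, 7 without PA1 of embryo 3 and 4 without PA1 of embryo 4. Of the 43 genes that followed red cells, 2 were called without that library, whereas 123 of the 124 that followed heart muscle were. The endothelium list (1 of 15 higher, 1 lower) and the macrophage list (0 of 8 either way) gave no such shift, and Gja4, an arterial gap junction gene, was the higher one at 1.26 (SE 0.29, adjusted p = 0.0012).

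**Figure D3:**
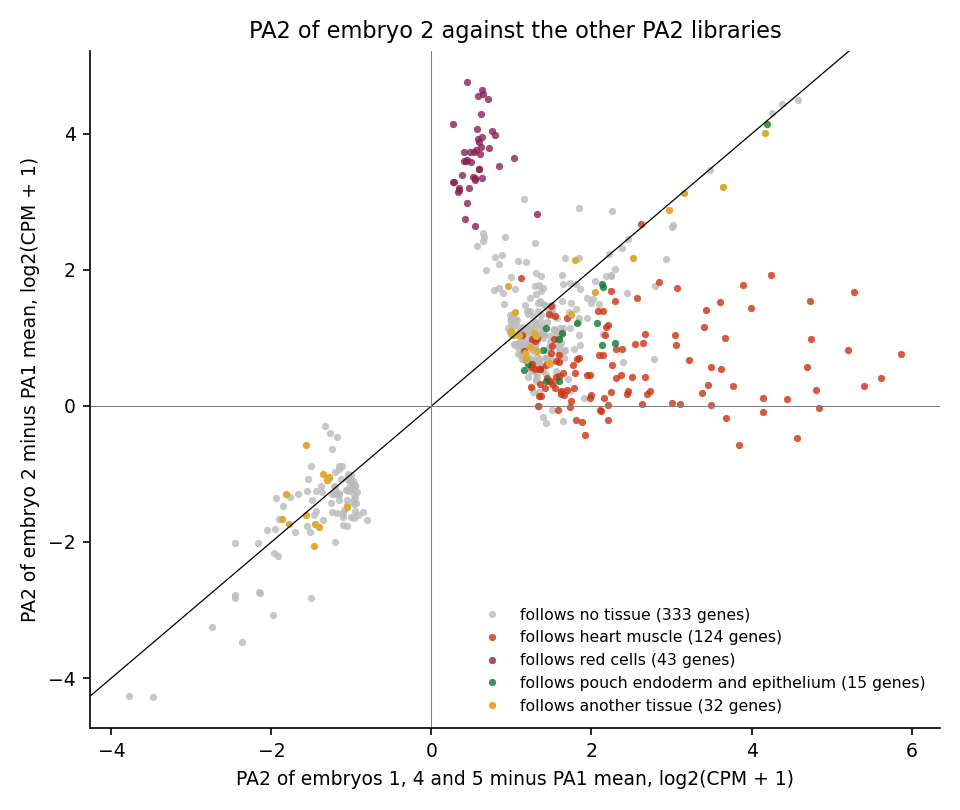
The 547 genes that differed by at least 1 on the log2(CPM + 1) scale: PA2 of embryos 1, 4 and 5 minus the PA1 mean (x axis) against PA2 of embryo 2 minus the PA1 mean (y axis), by the tissue they follow. Genes of heart muscle lie below the line of equality and those of red cells above it, while most of the 333 genes that follow no tissue lie near it.

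Set beside each other, the PA2 libraries showed which differences embryo 2 shared. Genes that followed heart muscle had a median of 2.15 over PA1 in the other 3 PA2 libraries and 0.54 in embryo 2, and those that followed red cells 0.55 and 3.61. The 239 higher genes that followed no tissue had 1.33 and 1.08, and the 94 lower ones -1.20 and -1.35. Of these, 237 and 91 were called without that library. This split was made after the heart and red cell sums were seen. The genes were also chosen by their difference in a PA2 mean that includes embryo 2. Part of the agreement between the PA2 libraries is therefore fixed by that choice. An exception among the named genes was Ppp1r14c, a phosphatase inhibitor, with 18.1, 3.9, 18.4 and 23.6 CPM in PA2 against 1.72 to 2.48 in PA1.

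Pouch endoderm, the inner lining between the arches, was higher in PA2 in every embryo. Its markers summed to 315, 261, 333 and 285 CPM in PA2 and to 63.3 to 103 in PA1, and 8 of 11 genes were higher and none lower, with a median of 1.00. Nkx2-6, a homeobox gene of pharyngeal endoderm and outflow tract, stood at 61.4, 80.3, 113 and 68.2 CPM in PA2 against 1.67, 3.96, 3.54, 3.52 and 3.49 in PA1. It was thus as high in embryo 2 as elsewhere, and the difference was 4.26 (SE 0.30, adjusted p = 6.9e-17). Pax1 and Pax9, which mark the pouches, were higher by 2.17 (SE 0.27) and 1.85 (SE 0.19). Pax1 had 74.9, 59.8, 84.6 and 66.8 CPM in PA2 against 11.2 to 21.3 in PA1. Nkx2-1, a thyroid gene, was uneven at 8.7, 3.9, 3.2 and 4.76 CPM against 0 to 2.71, with a difference of 2.05 (SE 0.53, adjusted p = 0.0035). Other endodermal markers did not pass: Foxa2 had 0.641 to 2.32 CPM in PA2 and 1.49 to 2.51 in PA1 (adjusted p = 0.19), and Shh 0.541 to 2.16 and 0.828 to 1.57 (0.95).

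Markers of the otic vesicle and of cranial ganglia, structures next to PA2, were read as well. The 4 otic genes tested summed to 45, 56.8, 31.3 and 50.8 CPM in PA2 against 1.46, 9.27, 3.33, 1.66 and 2.16 in PA1, and 3 of them were called higher. Pax8, a gene of the otic placode and thyroid, carried the sum, with 39.7, 35.5, 27.5 and 45.9 CPM in PA2 against 0.147 to 5.42 in PA1. Its difference was 4.18 (SE 0.52, adjusted p = 1.3e-08). Pax8 was among the 15 genes that followed pouch endoderm and epithelium, not among the 6 that followed the otic vesicle. Ret, a receptor tyrosine kinase gene of developing nerves and kidney, had 15.1 to 25.4 CPM in PA2 against 0.483 to 1.08 in PA1 (difference 3.53, SE 0.29, adjusted p = 3e-14). Ret was among the 6 genes that followed the otic vesicle. The ganglion sum was 18.5, 23.7, 13.4 and 78.6 CPM in PA2, where embryo 5 was far above the rest, and 11.5 to 22.1 in PA1. The arches overlapped in this sum. Of 10 ganglion genes 4 were called higher and 1 lower, but 2 were higher with only the compared groups fitted, and likewise without PA2 of embryo 2 or 5 or without PA1 of embryo 1, 2, 3 or 4. The lower call was lost without PA2 of embryo 1 or 4.

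Mesenchyme of the neural crest went the other way. Its 17 markers summed to 663, 658, 603 and 530 CPM in PA2 and to 903, 933, 892, 917 and 906 in PA1. The arches did not overlap, and 10 genes were lower in PA2 and none higher, with a median of -0.55 against -0.01 over all genes. Without PA2 of embryo 2 the median was -0.70 with the same count. With only the compared groups fitted, 10 were lower and 1 higher. Dlx1, Dlx2, Dlx5 and Dlx6 are in this list and in that of jaw patterning below, so their calls count in both. Other lists share genes too. Hand1, Hand2, Fgf10 and Wnt11 are in the list of heart progenitors and in the jaw, FGF or Wnt list. Shh is in the pouch and Hedgehog lists. Prrx1, a homeobox gene of limb and facial mesenchyme, had 39.2, 42.6, 46.1 and 27.5 CPM in PA2 against at least 88.1 in each PA1 library. The difference was -1.33 (SE 0.20, adjusted p = 2e-06). Its relative Prrx2 had 152 to 161 CPM in PA2 and 126 to 145 in PA1, with a difference of 0.25 (adjusted p = 0.12). Twist1 and Tfap2b, transcription factor genes of crest and mesenchyme, were lower too, at -0.80 (SE 0.16) and -1.23 (SE 0.20). With heart, red cell and yolk sac markers taken out of the library totals, 10 genes were again lower, with a median of -0.51. Whether RNA of other tissues in the PA2 libraries lowered these levels was not tested.

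The arch mesoderm, the muscle-forming core, held genes of both directions. Tcf21, an early head muscle gene, had 30.8, 56.5, 28.9 and 27.5 CPM in PA2 against 9.73 to 15 in PA1, a rise of 1.42 (SE 0.23, adjusted p = 6.3e-06). Msc, the gene of musculin, fell by 1.00 (SE 0.29, adjusted p = 0.011). With the block 2 of the 6 genes were higher and 2 lower, against 1 and 2 without it.

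Surface ectoderm also split. Krt14, an epidermal keratin, had 0.206 to 0.855 CPM in PA2 and 4.92 to 8.01 in PA1 (difference -2.35, SE 0.24, adjusted p = 2.8e-11). Trp63, the p63 gene that stratified epithelium depends on, had 15.6, 14.4, 19.6 and 14.8 CPM against 53.1 to 84.8 (difference -2.02, SE 0.21, adjusted p = 3.8e-11). Against these, Foxi2, a forkhead gene of early head ectoderm, had 86.2, 107, 87.6 and 132 CPM in PA2 and 37.9 to 53 in PA1, and Foxi3, which acts in placodes and pharyngeal ectoderm, 4.12 to 6.57 and 1.17 to 2.55. They were higher by 1.09 (SE 0.30) and 1.06 (SE 0.22). Of 10 ectoderm genes 2 were higher and 4 lower, while general epithelial markers had 5 of 14 higher and 1 lower, Epcam among the higher at 0.64 (SE 0.13).

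Hox genes separated the arches in all 9 libraries. Hoxa2 stood at 22.9, 23, 20.2 and 23.1 CPM in PA2 and at 0.209, 0.0542, 0.103, 0.069 and 0.0982 in PA1. The PA2 libraries lay within a narrow band, and the PA1 libraries near the floor of 3 reads, 10 reads in all against 1667. The ratio was 205 (exact 95% interval 111 to 429, counting error only) and the log2 difference 4.39 (SE 0.17, adjusted p = 2.3e-29). Hoxb2, its paralog on another cluster, had 4.89, 5.29, 6.07 and 4.76 CPM against 0.196 to 0.488, a rise of 2.23 (SE 0.15, adjusted p = 3.1e-17). Hoxb1, a group 1 gene known from the hindbrain and the crest that leaves it, was more uneven, with 5.97, 1.87, 7.67 and 2.65 CPM in PA2 against 0.147 to 1.31. Hoxa3, the group 3 gene of more posterior arches, was read at 1.03 to 1.82 CPM in PA2, 108 reads against 3 in PA1, a ratio of 44.3 (exact interval 14.8 to 218). Of 7 Hox genes tested 5 were higher and none lower; Hoxb5 and Hoxd1 stood at or below 1.1 CPM in all 9 libraries and did not pass.

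The Hoxa genes lie together on chromosome 6 of mm10, Hoxa2 at chr6:52162417-52164831 on the minus strand. The log2 difference was 4.39 for Hoxa2, 2.41 for the antisense transcript Hoxaas2 and 1.23 for Hoxa3, while Hoxa9 was near 0 in both arches. Hoxaas2 and Hoxa3 overlap at their ends on opposite strands, and without a statement that counting used strand, reads in the shared stretch cannot be told apart. The 250 bases before the Hoxa2 start (chr6:52164832-52165081, minus strand, RefSeq, GRCm38.p6) are shown because Hoxa2 had the largest difference of the Hox genes tested. Capitals mark a match to TGATNNAT, a Hox-Pbx type motif, read on the opposite strand.
Hoxa2: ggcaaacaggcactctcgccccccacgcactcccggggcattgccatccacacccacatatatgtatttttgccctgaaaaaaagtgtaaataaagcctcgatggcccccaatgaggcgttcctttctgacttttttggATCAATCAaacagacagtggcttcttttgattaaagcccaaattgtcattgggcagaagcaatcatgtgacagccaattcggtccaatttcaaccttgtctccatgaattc
Among 19 windows of the named genes higher in PA2, this was the 1 that held the motif (5.26%), against 8.85% of all windows.

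Partners of Hox proteins differed gene by gene. Meis1, a TALE homeobox gene, stood at 162, 109, 146 and 140 CPM in PA2 and at 27.5 to 51 in PA1. That is a rise of 1.91 (SE 0.14, adjusted p = 7.1e-16). Meis2 did not pass, at 112 to 126 and 117 to 132 CPM (difference -0.04, SE 0.06, adjusted p = 0.7). Pknox2 was lower in PA2, with 46.7 to 53.8 CPM against at least 80, a difference of -0.82 (SE 0.14, adjusted p = 2.1e-05). Of 9 TALE genes 3 were higher and 1 lower.

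FGF genes were more often higher than lower in PA2. FGF ligands bind receptor tyrosine kinases, and Spry and Etv genes are read out as targets of that signal. Of 21 pathway genes 12 were higher in PA2 and 1, the receptor gene Fgfr2, was lower, with a median of 0.58. Over all genes tested, 10.2% were higher and 8.53% lower. Fgf3 had 26, 25.1, 29.1 and 24.9 CPM in PA2 and 0.261, 0.271, 0.0513, 0.069 and 0.147 in PA1. All PA2 libraries were alike and PA1 was close to the floor, with 1962 reads against 15, a ratio of 161 (exact 95% interval 97.3 to 288). Fgf4 had 16, 15.4, 21.3 and 15.5 CPM in PA2, while 3 PA1 libraries had no read and the other two 1 read each: 1272 reads against 2, a ratio of 783 with a wide interval of 216 to 6470. Fgf4 was among the 6 genes that followed the otic vesicle, whereas Fgf3 and Fgf15 followed no tissue. Fgf15 had 12.5, 12.6, 14.4 and 11.5 CPM against 0.0982 to 0.488, a difference of 3.48 (SE 0.26, adjusted p = 8e-16). Embryo 4 was the highest of the PA2 libraries in all of these.

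Fgf3, Fgf4 and Fgf15 are neighbours, within 62.9 kb of chromosome 7 (chr7:144838083-144900953, mm10). The genes beyond them differed in degree. Ano1, a chloride channel gene on the Fgf3 side, rose by 1.47 (SE 0.29, adjusted p = 0.00011), and Ccnd1, cyclin D1, on the Fgf15 side stood at 0.03 (SE 0.21, adjusted p = 0.94). Other ligands changed less: Fgf9 rose by 1.34, from 0.271 to 0.621 CPM in PA1 to 2.32 to 3.08 in PA2, Fgf10 by 0.73 and Fgf8 by 0.62. Fgf8, the main ligand of arch ectoderm, had 33.5, 30.3, 33.8 and 36.6 CPM in PA2 and 19.8 to 23.3 in PA1 (adjusted p = 0.022). Of the targets, Etv4 had 13.8 to 16.3 CPM against 4.12 to 6.13 and rose by 1.44 (SE 0.19), Etv5 by 0.80, Spry1 by 0.75 and Spry2 by 0.74. Dusp6 and Spry4, known targets too, were at 0.14 and -0.03 and did not pass.

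Retinoic acid genes of synthesis and of breakdown were found on both sides. Retinol dehydrogenase Rdh10, which makes the precursor of retinoic acid, had 33.7, 25.5, 32.4 and 31.9 CPM in PA2 and 9.67 to 15.3 in PA1, a rise of 1.23 (SE 0.14, adjusted p = 1.4e-09). The synthesizing enzyme Aldh1a3 was lower in PA2, at 12.2 to 19 CPM against 20.8 to 61.5 (difference -1.08, SE 0.27). Among the Cyp26 enzymes, which degrade retinoic acid, Cyp26b1 was higher in PA2 and Cyp26c1 higher in PA1. Cyp26b1 was among the 6 genes that followed the otic vesicle. Cyp26b1 had 7.57, 6.41, 11.3 and 6.87 CPM in PA2 against 0.366 to 1.03, and rose by 2.43 (SE 0.24, adjusted p = 1.1e-11). Cyp26c1 had 3.4, 2.24, 2.98 and 5.9 CPM in PA2 against 18.6 to 25.6, a difference of -2.29 (SE 0.35, adjusted p = 1.8e-06). Cyp26a1, with 5.93 to 17.3 CPM in PA2 and 18.1 to 38.2 in PA1, did not overlap between the arches and yet did not pass (adjusted p = 0.064; 0.029 with the block). Binding proteins Crabp1 and Crabp2 were higher by 0.94 and 0.79, and the receptor gene Rarg was lower, 11.3 to 16.3 CPM against 30.3 to 37.5. Of 15 genes in this list 6 were higher and 4 lower, against 10.2% and 8.53% of all genes tested.

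Jaw patterning genes were more often lower than higher in PA2. Of 24 genes, 7 were lower in PA2 (11 with only the compared groups fitted), 2 higher (Gbx2 and Jag1) and 15 did not pass, with a median of -0.40. Over all genes tested, 8.53% were lower and 10.2% higher. Pitx1, a homeobox gene of the lower jaw and hindlimb, had 2.11, 0.641, 1.1 and 0.866 CPM in PA2 against 40.6, 21.4, 21.6, 46.8 and 30.3 in PA1. No PA2 library came near a PA1 library, and the difference was -3.90 (SE 0.29, adjusted p = 6.7e-16). Barx1, which marks the proximal jaw and stomach, was more spread in PA1: 31.5, 51.7, 14, 28.4 and 25.7 CPM against 2.03 to 4.17 (difference -2.87, SE 0.52, adjusted p = 3.7e-05). Distal-less genes pattern the arches from top to bottom. Dlx3, of the lower part, had 8.91, 8.55, 6.73 and 5.9 CPM in PA2 against 22 to 40.5, Dlx5 26.3, 36.6, 15.4 and 14 against 48.5 to 59.3, and Dlx2 39.7 to 70.8 against 89.4 to 110. Their differences were -2.0 (SE 0.32), -1.32 (SE 0.28) and -0.87 (SE 0.19), and that of Dlx6os1, an antisense transcript whose locus spans Dlx6, was -2.53 (SE 0.39), where reads from the overlap likewise cannot be assigned. Hand2, of the ventral tip, did not pass at 4.54 to 9.1 and 2.56 to 4.86 CPM (adjusted p = 0.19), nor did Edn1, the endothelin ligand above it, at 27.4 to 38.2 and 18.7 to 23.2 (0.06; 0.0019 with the block).

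Of the 16 genes with the largest differences on the PA1 side, taken by the rule for named genes, 9 have a RefSeq window here. The motif TAATCC, a Pitx type site, was in 4 of their 12 windows (33.3%), those of Cyp26c1, Dlx6os1, Krt14 and Ndst3, against 7.06% of all windows. Both strands were searched, and its TAAT can lie within a match to TGATNNAT. The 250 bases before the Cyp26c1 start (chr19:37685430-37685679, plus strand, RefSeq, GRCm38.p6) are given with the motif in capitals, because Cyp26c1 is the PA1 enzyme of the paragraph on retinoic acid.
Cyp26c1: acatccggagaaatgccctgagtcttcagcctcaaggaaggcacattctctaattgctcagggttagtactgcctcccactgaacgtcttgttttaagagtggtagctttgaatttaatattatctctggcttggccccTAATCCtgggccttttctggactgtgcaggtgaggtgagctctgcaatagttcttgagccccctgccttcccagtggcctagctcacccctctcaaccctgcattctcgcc

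**Figure D4:**
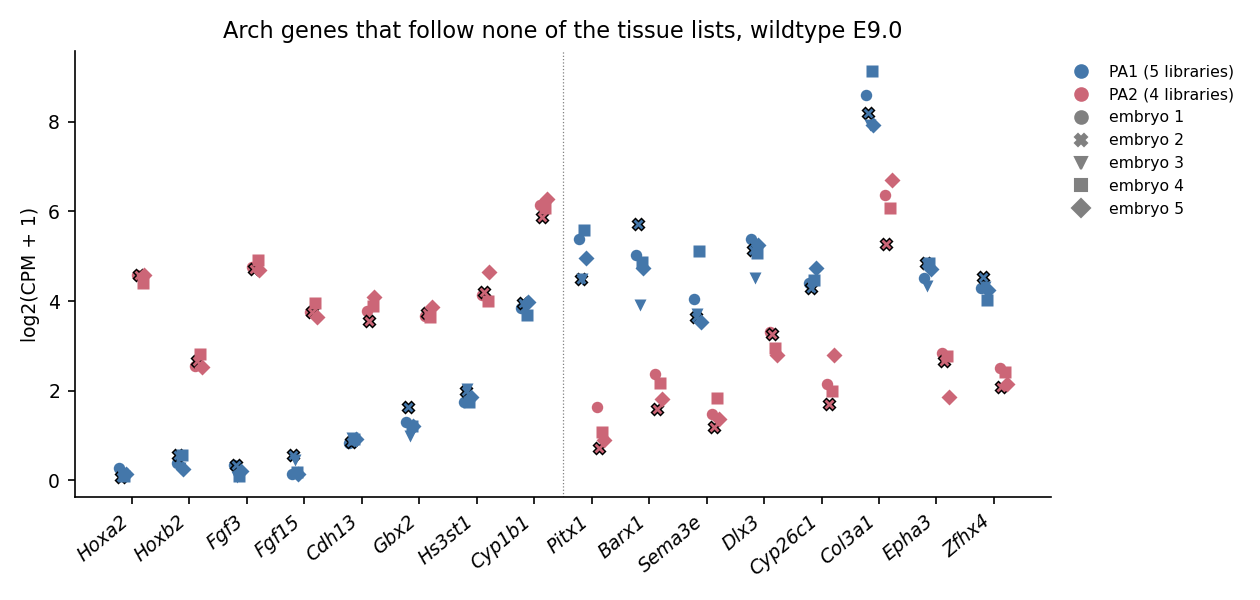
Level of 16 genes that follow none of the tissue lists, as log2(CPM + 1) (y axis), in each wildtype library at E9.0: PA1 in blue, PA2 in red, 1 marker shape per embryo. The 8 genes on the left are higher in PA2 and the 8 on the right lower. PA2 of embryo 2 (outlined cross) lies on the same side of PA1 as the other PA2 libraries. In Col3a1 it lies below them, at -3.07 from the PA1 mean against -1.98.

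Of the other signals, more BMP genes were called higher than lower in PA2, and the few Hedgehog calls were all lower. Of all genes tested, 10.2% were higher and 8.53% lower. Among 17 BMP genes 6 were higher and 1 lower (median 0.32). The ligand gene Bmp4 had 58.3, 32.3, 49 and 47.6 CPM in PA2 against 18.4 to 27.1 in PA1 (rise 1.10, SE 0.26, adjusted p = 0.0012), and Id4, a target, 37.2 to 59.2 against 14 to 18.8 (rise 1.5, SE 0.18, adjusted p = 3e-09). Bmp4 was among the 124 genes that followed heart muscle. The receptor gene Bmpr1b was the lower one, 7.38 to 11.5 CPM against 15.8 to 25.6. Hedgehog genes had 3 of 13 lower (Gas1, Gli3 and Smo; 5 with the block, 6 with only the compared groups fitted) and none higher, that of Smo lost without PA2 of embryo 5, and the targets Gli1 and Ptch1 stood at -0.22 and -0.12 without passing. Wnt genes had 3 of 22 higher and 2 lower, close to the shares over all genes (3 and 4 with the block). Wnt5a, a mesenchymal ligand, had 41.8 to 60.3 CPM in PA2 against 103 to 114 in PA1 (difference -1.11, SE 0.19, adjusted p = 1.8e-05). Wnt4 stood at -1.69 (SE 0.19), and Wnt9b, of the ectoderm, was higher by 1.07 (SE 0.21).

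Guidance cues, which steer crest cells, axons and vessels, were split. Of 25 genes 8 were higher and 6 lower, but 8 and 2 without PA2 of embryo 2, 5 and 6 without PA2 of embryo 1, and 5 and 5 without PA2 of embryo 4. Over all genes tested, 10.2% were higher and 8.53% lower. Sema3e, a repellent of vessels, had 1.8, 1.28, 2.59 and 1.57 CPM in PA2 against 15.6, 11.5, 12, 33.7 and 10.6 in PA1, a difference of -2.54 (SE 0.36, adjusted p = 2.8e-07). Sema3c, expressed in the outflow tract, had 62.2, 54.6 and 55.9 CPM in PA2 of embryos 1, 4 and 5, 11.3 in that of embryo 2, and 11.9 to 27 in PA1. Its pattern over the PA2 libraries was that of the heart genes (rise 1.00, SE 0.30, adjusted p = 0.013), and its call was lost without PA2 of embryo 1, 4 or 5 or PA1 of embryo 1. Epha3, an ephrin receptor gene outside the list, had 6.13, 5.29, 5.79 and 2.65 CPM against 19.3 to 28 (difference -2.13, SE 0.36, adjusted p = 1.1e-05).

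Several large differences followed no tissue, most of them in genes of no list. Cdh13, the gene of T-cadherin, had 12.8, 10.7, 13.7 and 15.9 CPM in PA2 and 0.784 to 0.923 in PA1 (rise 2.93, SE 0.18, adjusted p = 3.9e-19). Gbx2, a homeobox gene of the midbrain-hindbrain border, pharyngeal ectoderm and endoderm, had 11.6, 12.2, 11.4 and 13.5 CPM against 0.974 to 2.11 (rise 2.45, SE 0.23, adjusted p = 2.1e-12). Hs3st1, a heparan sulfate sulfotransferase, had 15 to 23.9 CPM against 2.35 to 3.13, and Cyp1b1, a cytochrome that can oxidize retinol, 57.9 to 76.3 against 11.8 to 14.8. They rose by 2.36 (SE 0.20) and 2.22 (SE 0.21). On the PA1 side, Col3a1, a fibrillar collagen, had 81.2, 37.9, 66.7 and 103 CPM in PA2 against 243 to 560, and Postn, periostin, 7.7 to 18.9 against 89.9 to 524. Their differences were -2.25 (SE 0.38) and -3.68 (SE 0.63, adjusted p = 1.4e-05). Zfhx4, a zinc finger homeobox gene, had 3.21 to 4.69 CPM against 15.2 to 22.1.

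The same contrast in other embryos was read from the libraries labelled Hoxa2-/- at E9.0, which share none of these embryos. Hoxa2 itself did not fall with that label: it stood at 28.7 ± 8.41 CPM (SD, n = 4) in PA2 with it and 22.3 ± 1.4 (n = 4) in wildtype, and which bases the allele lacks is not given in the sources used here. In those libraries 12.1% of genes were higher in PA2 and 12.5% lower. Of the 239 higher genes without a tissue, 226 were higher there too, and of the 94 lower ones 79 were lower. The shares were 121 of 124 for genes that followed heart muscle and 7 of 43 for those that followed red cells. Fgf3 rose by 4.06, Meis1 by 1.59 and Cdh13 by 3.02 with that label, and Pitx1 stood at -3.25. Postn, at -1.47, did not pass there (adjusted p = 0.096), and its difference of -2.20 (SE 0.91) between the wildtype and that label did not pass either (adjusted p = 0.82). In limma, the arch difference itself differed between wildtype and the label for 0 of 18428 genes (0%), with 1083 at an unadjusted p under 0.05, and edgeR was not run for it.

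The arch difference changed with stage. Wildtype E10.0 was left out of these comparisons, because its libraries stood apart from the other wildtype libraries. At E10.5 the difference had shifted for 617 genes (3.35%), 408 of them further toward PA2 at E9.0 (2.21%) and 209 further toward PA1 (1.13%). At E9.5 it had shifted for 1891 (10.3%), 1035 (5.62%) and 856 (4.65%) in these directions. Both tests use the E9.0 libraries. The order of the 2 counts depended on the fit: with only the compared groups there were 1025 genes for E10.5 and 857 for E9.5. The stages also differ in libraries, with 3 PA1 and 3 PA2 at E10.5 and 5 PA1 and 4 PA2 at E9.5. The arches themselves differed at 26.3% of genes at E9.5 (12.7% higher in PA2, 13.7% lower) and at 1.52% at E10.5 (0.868% and 0.651%), with 3 embryos each. The E9.5 count depended on single libraries: it was 428 without replicate 3 of wildtype PA1 at E9.5, 439 without replicate 5 of PA2 at E9.5, 474 without replicate 1 of PA1 at E9.5 and 3164 without replicate 2 of PA1 at E9.5. It was 967 without PA2 of embryo 2, 857 when only the compared groups were fitted and 3281 with the block, and its split turned to 779 and 1054 with heart, red cell and yolk sac markers taken out of the totals. Heart muscle sums moved with stage in PA2, as given above. Tnnt2 and Unc45b, which follow them, were higher at E9.0 by 4.11 and 4.38 and stood at -0.17 and 0.04 at E10.5.

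Signalling and homeobox genes shifted too. Fgf3 went from 4.56 to 4.39 and 0.99 over the stages from E9.0 to E10.5, as its PA2 mean went from 26.3 to 22.3 and 1.07 CPM, and the change to E10.5 was 3.56 (SE 0.44, adjusted p = 5.3e-08). Fgf4 changed by 4.11 (SE 0.48) over the same interval, but its neighbour Fgf15 by 0.41 (SE 0.41, adjusted p = 0.72), with 9.71 CPM left in PA2. Fgf8 turned over, from 0.62 in favour of PA2 to -0.66 and -1.88, a change of 2.50 (SE 0.31, adjusted p = 8.5e-08). Gbx2 lost its difference early: 2.45, 0.42 and -0.92, a change to E9.5 of 2.03 (SE 0.32, adjusted p = 0.00017). Hoxa2 widened from 4.39 to 5.33 by E10.5 (change -0.93, SE 0.26, adjusted p = 0.029), while Pitx1, at -3.90 and -4.93, did not pass (adjusted p = 0.25).

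Other genes that were lower in PA2 at E9.0 shifted toward PA2 by E10.5. Dlx3 went from -2.0 to -0.38 and 1.20, as its PA2 mean rose from 7.52 to 53 and 96.1 CPM, a change to E10.5 of -3.20 (SE 0.50, adjusted p = 1.4e-05). Dlx6os1 changed by -3.27 (SE 0.61) and Zfhx4 by -2.11 (SE 0.34) over the same interval. Meox2, a homeobox gene of muscle precursors, went from -1.76 to -0.08 and 1.82, and Epha3 from -2.13 to 0.21 and 0.65. At E10.5 itself Meox2 was higher in PA2 (adjusted p = 2.5e-05), while Dlx3 (0.13) and Epha3 (0.98) did not pass. Rarres1, a retinoid-responsive gene, grew in favour of PA2, from 1.05 at E9.0 to 2.96 at E9.5 (change -1.92, SE 0.45, adjusted p = 0.012). Meis2 stood at -0.04 at E9.0 and reached 1.06 at E10.5 (change -1.10, SE 0.10, adjusted p = 3.3e-12). Some genes lower in PA2 at E10.5 had values near 0 at E9.0: Lhx6, a LIM homeobox gene of the jaw, stood at -0.02 and -3.48, and Alx4 at 0.01 and -3.12. Hmx1, a gene of the outer ear and second arch, had at most 0.309 CPM in either arch at E9.0 and was higher in PA2 by 4.36 at E10.5.

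**Figure D5:**
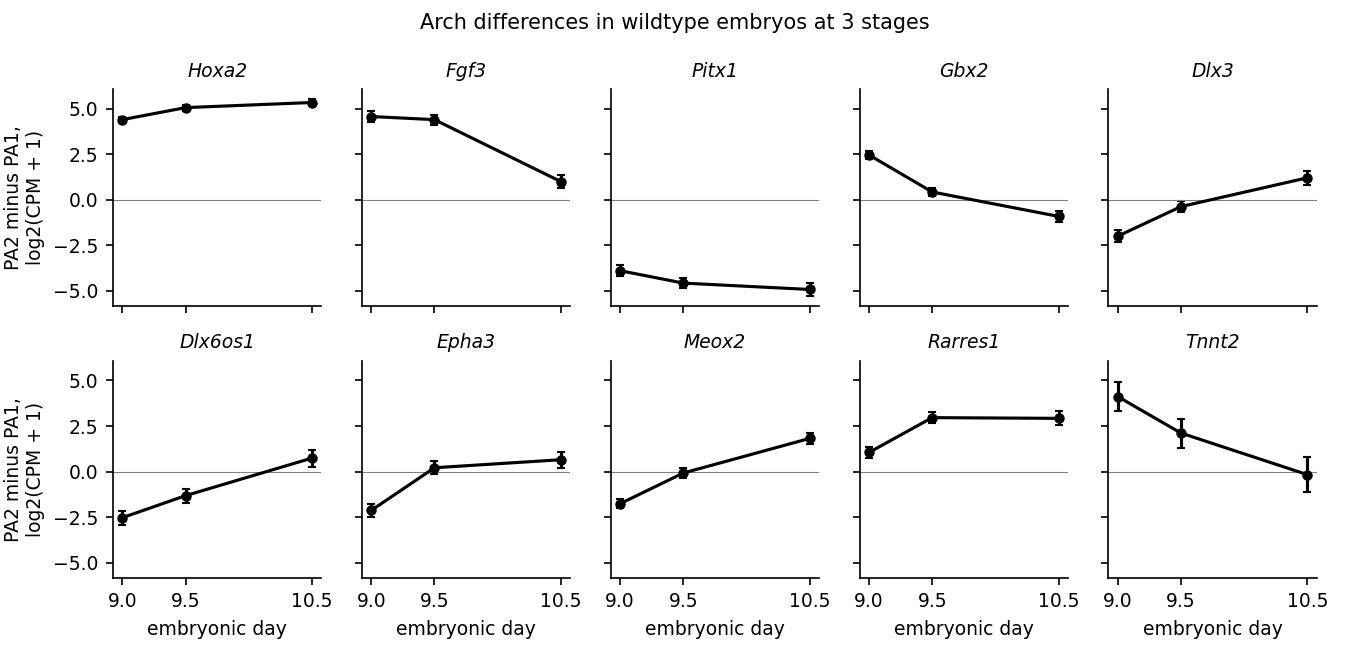
Difference between wildtype PA2 and PA1 in log2(CPM + 1) (y axis) by embryonic day (x axis, E9.0 to E10.5) for 10 genes, with standard errors from the limma fit. Wildtype E10.0 is not drawn. Hoxa2 and Pitx1 keep their sides, Fgf3, Gbx2 and Tnnt2 come down toward 0, and Dlx3, Dlx6os1, Epha3 and Meox2 move from the PA1 side to above 0.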

How the data were processed

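RNA of hand-dissected arches was turned into cDNA with SMART-seq v4 and libraries were made with Nextera XT, per the labels' protocols. The submitters' processing notes name bcl2fastq 2.18, TopHat2 2.1.1, R 3.3.2 and mm10, with no role for each, and the counting program and its use of strand are not given in the sources used here. The authors deposited 1 table of a CPM-like signal for 21948 genes in 68 libraries, 21921 of them with a symbol in GENCODE M21. The study plan took the values for CPM; the deposited signal is called CPM here, although column totals ran from 926298 to 1051959. It came out as whole reads, within 0.1 read, for 100% of values in 67 libraries, and edgeR was run on these.

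Genes with at least 1 CPM in at least 3 libraries were kept, 18428 in all. Their log2(CPM + 1) values were fitted with limma 3.58.1 (R 4.3.3) as 16 group means across the 68 libraries, with the prior variance following the mean level. Tests are two-sided, p-values are adjusted by Benjamini-Hochberg for all kept genes, and 0.05 is the threshold. Log2 differences are PA2 minus PA1, and the added 1 shrinks those of low genes. Differences by stage are the E9.0 arch difference minus that of the other stage in the same fit. The tests were run on simulated data first. cDNA was amplified with no molecular identifiers stated, so intervals on read ratios (exact, 95%) cover counting error only. The p-values of the main fit rest on the spread between replicate libraries pooled over all 16 groups. That spread is not the one of the wildtype E9.0 embryos alone, and the main fit does not pair the arches of an embryo.

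The series text takes both arches from 1 embryo, and equal numbers went together: deviations from group means correlated at a median of 0.34 in the 4 wildtype E9.0 pairs, all over 0.1, against -0.05 over 16 pairs of different numbers. Alternatives were the replicate number (embryo) as a block, other pseudocounts, filters and scalings, only the compared groups, each replicate left out, and edgeR 4.0.16 on recovered reads.

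The comparison, gene lists and tests were chosen with earlier results of these data known. Genes named are the 12 with the largest difference in each direction whose arches did not overlap, the 12 among genes that follow no tissue, up to 4 called genes of each list, and 5 in each direction of each stage difference, with at least 5 CPM in the higher arch. Some genes that the rule takes are not reported here. Other genes were named after their values were seen. Motifs were searched on both strands of the 250 bases before to 50 after each start.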

Additional observations from a re-analysis of the deposited data

Results flagged for a closer look

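Spread within the groups was checked for 124 sets of values by the gap of the farthest library to its nearest neighbour, relative to the range. Of these, 15 stood out, where chance gives about 1 in 20, and 6 of the 15 were PA2 of embryo 2. That library held 80.1 CPM of heart muscle markers, 75218 of red cell markers and 7.7 of macrophage markers, and 6.31 CPM of Unc45b, 3.63 of Myl4 and 31.4 of Tnni1. In PA2 the ganglion markers of embryo 5 (78.6 CPM), Hoxa2 of embryo 4 (20.2, the lowest of a narrow group) and Fgf4 of embryo 4 (21.3) also lay apart. In PA1 the libraries that lay apart were embryo 1 for macrophage markers (0.575 CPM) and Nkx2-6 (1.67), embryo 2 for otic markers (9.27), and embryo 4 for Hox genes (6.07), Postn (524) and Sema3e (33.7).

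The arch difference itself changed with stage for the genes taken by the rule. Relative to E9.5, it lay further toward PA2 at E9.0 for Gbx2 (2.03), Hspb1 (1.94), Mybpc1 (1.86), Klf1 (1.85) and Npm3 (1.70), in log2(CPM + 1) by limma. It lay further toward PA1 for Epha3 (-2.34), L1cam (-2.13), Rarres1 (-1.92), Heyl (-1.90) and Tmem132c (-1.79). Hspb1, Klf1 and Npm3 lost their calls when only the compared groups were fitted, and without replicate 1 of wildtype PA1 at E9.5 they and L1cam did. Klf1 and Npm3 also lost theirs without PA2 of embryo 2, and Hspb1 without PA2 of embryo 4. The call of Klf1 was lost too without PA1 of embryo 1, 3, 4 or 5 and in further fits. Relative to E10.5, the values were 4.48 for Rgs4, 4.33 for Unc45b, 4.28 for Tnnt2 and 4.22 for AI606473. On the other side they were -4.41 for Hmx1, -3.57 for Meox2, -3.27 for Dlx6os1, -3.20 for Dlx3 and -2.78 for Epha3. Unc45b, Tnnt2 and AI606473 lost their calls in edgeR on recovered reads. With 1 replicate left out, Tnnt2 kept its call only without PA1 of embryo 4 or PA2 of embryo 2 at E9.0. Unc45b lost its call without PA2 of embryo 1 or 4 at E9.0 or replicate 2 of PA1 at E10.5.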

How the results depend on the processing

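The counts of genes higher and lower in PA2 stayed within 1.5 times of 1882 and 1572 under every alternative run, at 1589 to 1761 and 1193 to 1581 with 1 replicate left out, and with the replicate block at 2129 and 2070. Of 98 named genes none changed sign over 19 alternatives and at least 89 kept their call, the fewest with only the compared groups. The difference between E9.0 and E9.5 was less steady: from 1035 and 856 genes it went to 1719 and 1562 with the replicate block, to 383 and 474 with only the compared groups, and to 213 to 1617 and 215 to 1547 with 1 replicate left out. Genes further toward PA1 at E9.0 than at E10.5 went from 209 to 466 with the block and 450 with only the compared groups. The cause was not tested. With 1 replicate left out the median ran from 0.95 to 2.00 for heart progenitors and from -0.70 to -0.52 for crest mesenchyme, and the far values of 2.00 and -0.70 were those without PA2 of embryo 2. A correlation threshold of 0.5 or 0.7 in place of 0.6 moved the genes that follow pouch endoderm from 15 to 35 or 4, and those that follow a tissue other than heart muscle, red cells and pouch from 20 to 44 or 5 (higher) and from 12 to 24 or 0 (lower). Beyond the calls given beside the results, the block ended that of Sox2 and the E9.5 stage call of Hspb1. It moved Heyl across the threshold at E9.0 and changed no other call among the genes named. Reads limit the genes near the floor, such as Fgf4 and Hoxa3 in PA1.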
